A study of Mus musculus with 12 samples.

Results

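Spheres grown from mouse cochlear glial cells were compared with cells that had been differentiated from such spheres in SCDM/FGF, a medium with the neurotrophins BDNF and NT3 and the growth factor bFGF. The comparison rests on 6 of the 12 RNA-seq libraries of the study, chosen by their labels as 3 SCDM/FGF libraries and 3 sphere libraries. All were poly(A)-selected libraries of cultured cells from mice of a mixed C57Bl6 and FVB/N background at postnatal day 4, the age in the labels' tag, although their protocol names a wider range of ages. The modiolus, the bony core of the cochlea that houses the spiral ganglion, was dissected from several mice of both sexes and dissociated, so each culture pooled animals and no cell type was sorted for in the labels' protocol. Spheres grew in suspension in DMEM/F12 with B27 and N2, bFGF at 10 ng/ml, EGF at 20 ng/ml, IGF at 50 ng/ml and heparan sulfate at 50 ng/ml. For differentiation they were plated on poly-L-ornithine and laminin and kept in DMEM/F12 with B27 and N2, bFGF at 100 ng/ml, BDNF at 50 ng/ml and NT3 at 50 ng/ml. The label gives 14 days. A sister medium without bFGF, SCDM (3 libraries), served to show which values differed with bFGF alone. Attachment, time in culture, the removal of EGF, IGF and heparan sulfate, the addition of neurotrophins and the higher bFGF dose all changed together between spheres and SCDM/FGF and cannot be told apart, whereas SCDM and SCDM/FGF differed by bFGF only.

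Glial cells of the spiral ganglion are satellite cells, which wrap neuronal cell bodies, and Schwann cells, which wrap and myelinate axons. Both arise from the neural crest and depend on the transcription factor Sox10. bFGF, the product of Fgf2, binds FGF receptors on the cell surface and activates the RAS and ERK kinase cascade, which switches on its own inhibitors, among them the Sprouty proteins and the phosphatase Dusp6. BDNF and NT3 bind the receptor kinases TrkB and TrkC, which keep spiral ganglion neurons alive.

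Values are TPM (a transcript level corrected for gene length and library total) rescaled between libraries, and called scaled TPM. Differences are given on the scale log2(scaled TPM + 1), on which changes of genes near 0 come out smaller than they are. Of 55487 genes listed, 16016 reached 1 TPM in at least 3 libraries and were tested. Here rose and fell mean an adjusted p under 0.05 in limma with Benjamini-Hochberg adjustment over all of these genes, with n = 3 libraries in each group. By that rule 4005 genes (25.0%) were higher in SCDM/FGF than in spheres and 4070 (25.4%) were lower. With a log2 fold change of at least 1.5 as well, 660 genes (4.12%) were higher and 308 (1.92%) were lower. Without rescaling, the median of all genes shifted by −0.20, and the same counts were 2529 higher and 6871 lower by adjusted p alone, and 567 and 437 with the fold limit. Among the genes called by adjusted p, 49.6% were higher, and 26.9% without rescaling. With the fold limit these shares were 68.2% and 56.5%. Of 15 housekeeping genes, 10 rose and 3 fell, with a median of 0.18, or −0.05 without rescaling. The SCDM/FGF and sphere libraries did not overlap in 57.0% of the genes tested. Libraries of the same group correlated at a Pearson r of 0.9825 to 0.9854 across genes, and libraries of different groups at 0.923 to 0.928. Read depth is unknown, since it cannot be had from TPM.

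**Figure D1:**
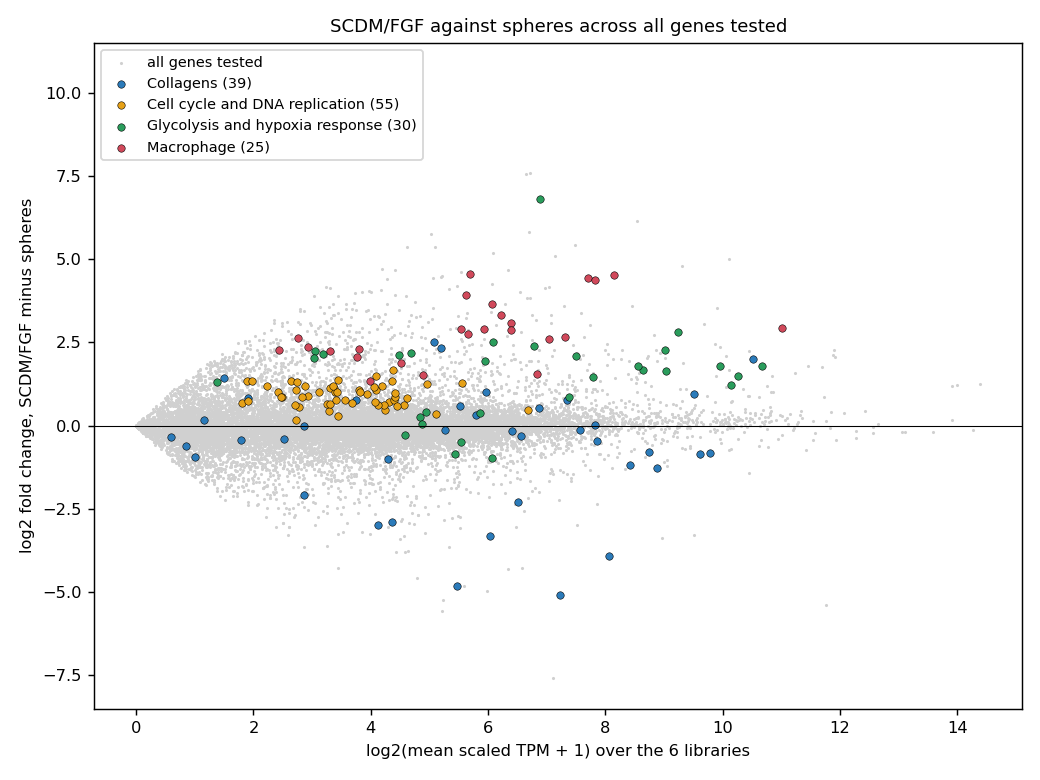
The plot sets the log2 fold change of SCDM/FGF against spheres (vertical axis) over the log2 mean of scaled TPM plus 1 in the 6 libraries (horizontal axis), with 1 grey point per gene tested and 4 gene lists in colour. All 25 macrophage markers and 24 of the 30 glycolysis and hypoxia genes lie above 0 as called genes, and the lowest collagen genes are near −5.

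The genes were read through 43 lists of pathway genes and cell type markers. Each count of a list stands beside the shares of all genes tested. These were 25.0% higher and 25.4% lower than in spheres, and 21.8% higher and 21.3% lower than in SCDM. Macrophage markers, complement genes and glycolysis and hypoxia genes had the highest medians of the lists, and genes of chondrocytes and osteoblasts had the lowest. In SCDM/FGF the medians of the FGF target, EGF, cholesterol, NRF2 and p53 lists lay above the spheres, and in SCDM they lay below them.

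**Figure D2:**
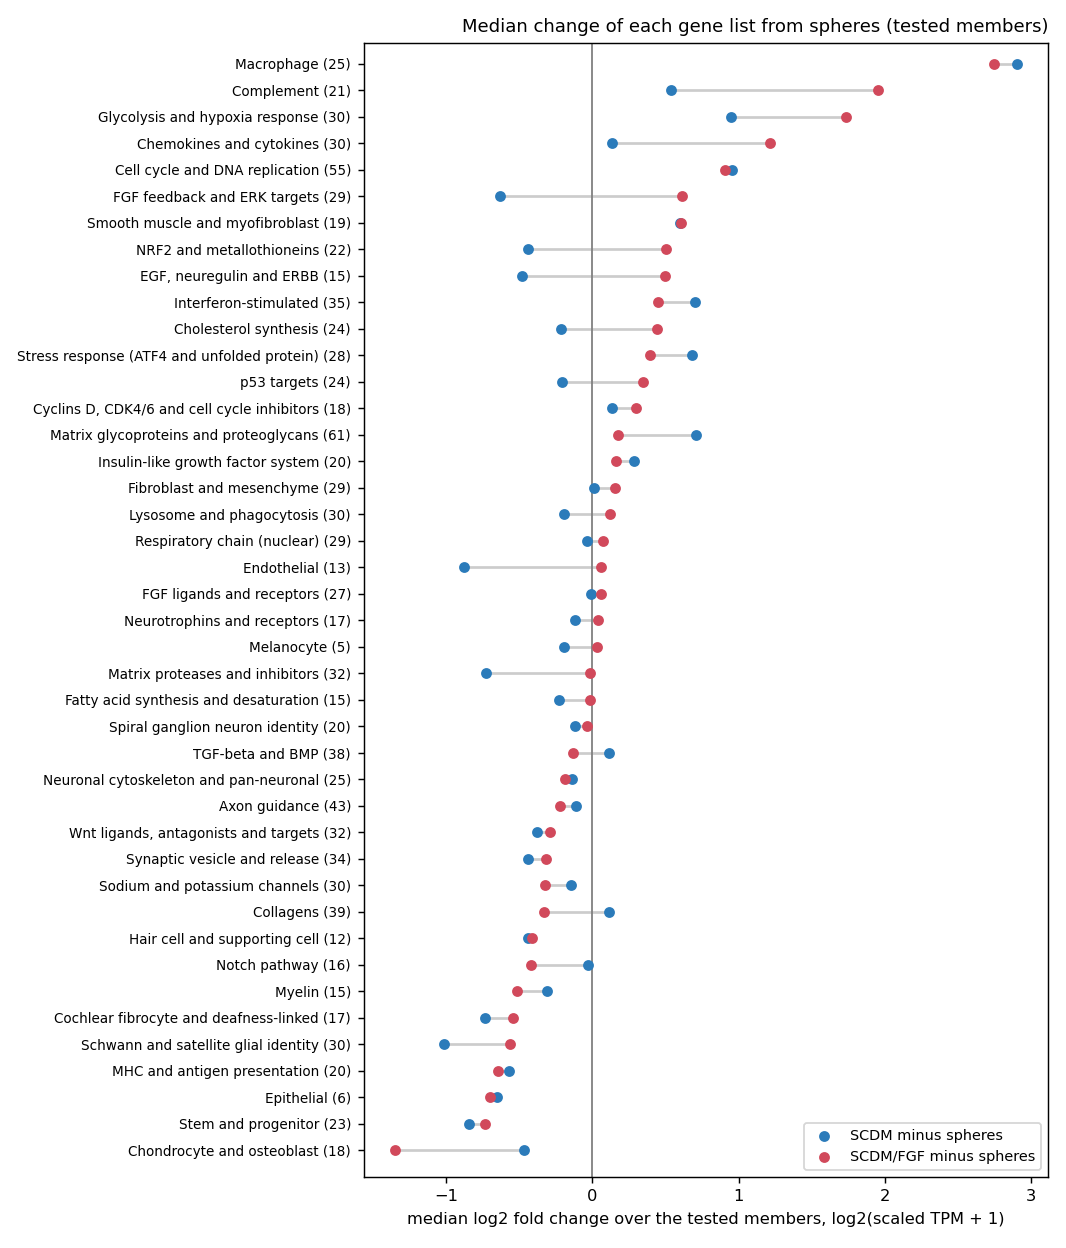
Each row of the plot is a gene list with its number of tested members in parentheses, and the points give the median log2 fold change from spheres, on the log2(scaled TPM + 1) scale, in SCDM/FGF (red) and in SCDM (blue). The median of the FGF feedback and ERK target list was 0.62 in SCDM/FGF and −0.63 in SCDM, and that of the macrophage list was 2.74 and 2.90.

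Feedback inhibitors and target genes of FGF signalling were higher in SCDM/FGF than in spheres, although the spheres also received bFGF. Of 29 such genes tested, 22 rose and 4 fell, and their median change was 0.62 beside −0.02 for all genes tested, of which 25.0% rose and 25.4% fell. Without rescaling 19 rose and 6 fell. Dusp6, the phosphatase that inactivates ERK (ENSMUSG00000019960, chromosome 10, 99263231 to 99267489 of GRCm38), was at 80.0, 85.1 and 85.3 scaled TPM in the sphere libraries and at 190.0, 167 and 179 in SCDM/FGF. Every SCDM/FGF library was above every sphere library, and the rise was 1.09 (standard error 0.07, limma, adjusted p = 2.82e-07). In SCDM, which had no bFGF, Dusp6 was at 32.1, 27.5 and 31.0, below the spheres.

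The Sprouty genes, which encode inhibitors of receptor kinase signalling, showed the same order of media to different degrees. Spry4 was at 23.8, 23.2 and 23.2 scaled TPM in spheres, 32.2, 32.5 and 33.3 in SCDM/FGF and 1.79, 1.76 and 1.57 in SCDM. The 3 groups did not overlap, and the rise from spheres was small (0.46, limma, adjusted p = 0.000215) while the difference from SCDM was 3.64 (limma, adjusted p = 3.64e-11). Spry2 rose by 0.62 and Spry1 by 1.36 (limma, adjusted p = 0.00021 and 4.04e-06). Etv4 and Etv5, ETS transcription factors induced by FGF, rose by 0.96 and 0.57 (limma, adjusted p = 8.19e-05 and 7.98e-07). Spred1 rose by 0.65 and Spred3 by 0.75, while their relative Spred2 changed by 0.15 (limma, adjusted p = 0.074).

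The largest rises of this list were in Lif, Fosl1, Ccnd1 and Dusp5. Fosl1, the AP-1 subunit Fra-1, was at 8.11, 5.43 and 3.29 scaled TPM in spheres and 40.7, 41.0 and 39.4 in SCDM/FGF, a rise of 2.71 (standard error 0.23, limma, adjusted p = 1.90e-06). Its level varied among the sphere libraries and hardly at all among those in SCDM/FGF. Ccnd1 encodes cyclin D1, which drives the passage from G1 to S phase (ENSMUSG00000070348, chromosome 7, 144929931 to 144939925), and was at 71.2, 70.7 and 69.5 in spheres and 285, 311 and 298 in SCDM/FGF (rise 2.06, limma, adjusted p = 2.97e-11). The immediate early gene Fos went the other way, from 331, 317 and 321 in spheres to 46.8, 36.3 and 38.1 in SCDM/FGF. It fell by 2.98 (limma, adjusted p = 6.70e-10), and in SCDM it was at 54.3, 48.2 and 46.7. Its relative Fosb fell by 4.56 and the stress-induced factor Atf3 by 2.01 (limma, adjusted p = 1.91e-10 and 1.21e-08). The other falls of this list were in Il17rd, a membrane inhibitor of FGF signalling, by 0.97, the early gene Egr1 by 0.42 and the ephrin receptor gene Epha4 by 1.08 (limma, adjusted p = 5.96e-05, 0.000534 and 1.59e-05). Against SCDM directly, 23 of the 29 genes were higher in SCDM/FGF and 5 were lower at an adjusted p under 0.05, beside 21.8% and 21.3% of all genes tested, with a median of 1.30.

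**Figure D3:**
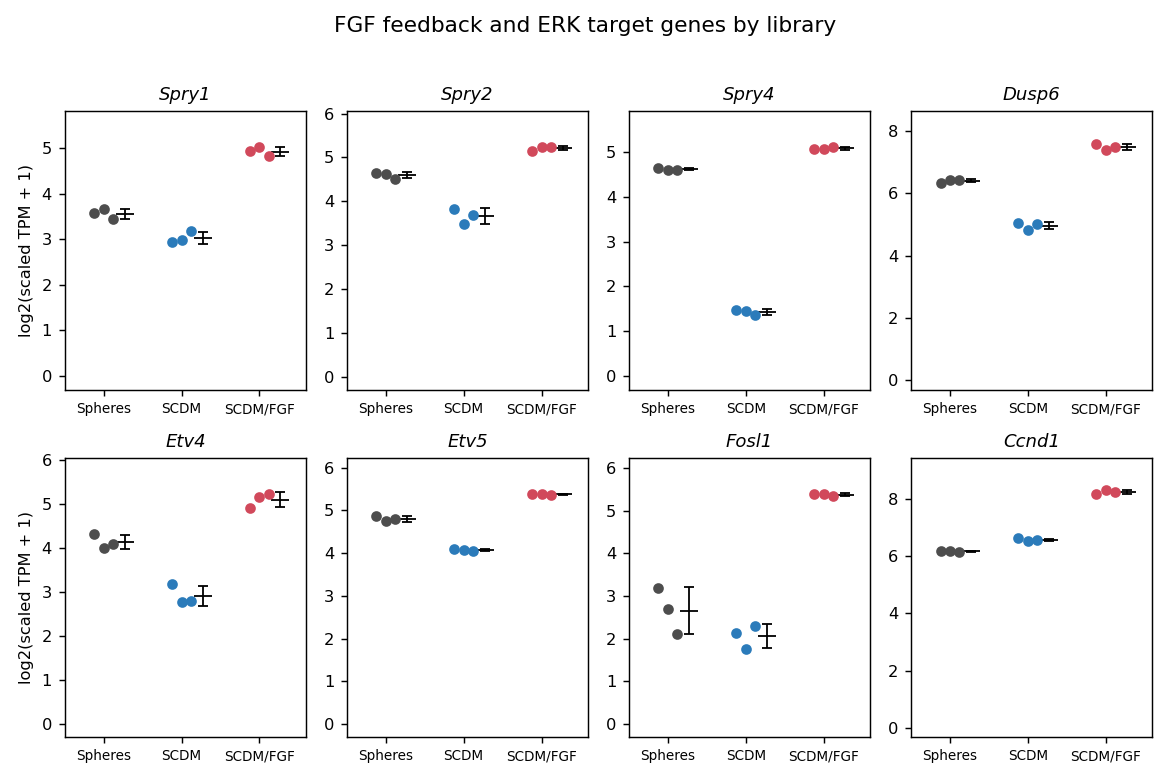
Each panel plots 1 gene as log2(scaled TPM + 1) on the vertical axis, with 1 point per library in spheres, SCDM and SCDM/FGF and the mean with its SD (n = 3) beside the points. In all 8 panels the SCDM/FGF libraries lie above the sphere libraries, and in 7 of them the SCDM mean lies below the spheres, the exception being Ccnd1.

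FGF ligands and receptors moved unevenly. Of 27 tested, 10 rose (37.0%) and 9 fell (33.3%), beside 25.0% and 25.4% of all genes, and without rescaling 10 rose and 13 fell. Fgf7, which encodes keratinocyte growth factor (ENSMUSG00000027208, chromosome 2, 126034658 to 126091185), was at 4.46, 6.29 and 6.33 scaled TPM in spheres, 64.7, 61.6 and 58.6 in SCDM and 119.7, 131 and 126 in SCDM/FGF. The groups were well apart, with a rise of 4.26 from spheres (limma, adjusted p = 1.25e-10). Flrt2, which encodes a membrane protein with leucine-rich repeats, rose by 2.58, and the heparan sulfate proteoglycan genes Gpc4 and Sdc4 rose by 1.67 and 1.44 (limma, adjusted p = 1.92e-09, 4.15e-09 and 1.45e-10). Among the receptors, Fgfr2 rose from 140.1 ± 44.8 to 298 ± 92.9 scaled TPM (mean ± SD, n = 3), by 1.10, and Fgfr1 fell from 311 ± 14.4 to 259 ± 9.75, by 0.26 (limma, adjusted p = 0.00606 and 0.000267). Fgfr3 fell by 2.06 and Fgfr4 by 3.05, from levels below 10 scaled TPM (limma, adjusted p = 7.46e-07 and 1.17e-06). Fgf5 fell from 44.9, 44.6 and 41.9 to 9.08, 7.61 and 10.1, by 2.18 (limma, adjusted p = 9.77e-08). Fgf2 itself, the gene of the added factor, rose by 0.68 (limma, adjusted p = 0.00261).

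Ligand genes of the EGF receptor moved in both directions in the medium from which EGF had been removed, with 3 of the 5 named here higher and 2 lower. Ereg (epiregulin), Hbegf (heparin-binding EGF) and Areg (amphiregulin) rose by 3.45, 2.22 and 2.16 (limma, adjusted p = 3.29e-09, 1.40e-07 and 1.06e-07). Ereg was at 0.0508, 0.184 and 0.260 scaled TPM in spheres and 12.0, 12.7 and 10.6 in SCDM/FGF, so its rise started from close to 0. Errfi1, a feedback inhibitor of the EGF receptor, went from 48.0, 44.5 and 48.1 to 184, 187 and 177, with no overlap and a rise of 1.94 (limma, adjusted p = 9.73e-10). Egfr, whose groups overlapped, rose by 0.29 (limma, adjusted p = 0.041), and this call was lost when single libraries were left out (highest adjusted p 0.147). The ligand genes Tgfa and Btc of the same family fell, Tgfa by 1.49 and Btc by 1.30 (limma, adjusted p = 2.16e-07 and 1.17e-06). Erbb3, the neuregulin receptor of Schwann cells, fell by 1.12 and its partner Erbb2 by 0.37 (limma, adjusted p = 1.52e-05 and 0.00834). Of 15 tested genes of this list, 8 rose and these 4 fell.

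Of the insulin-like growth factor system, 9 of 20 tested genes rose and 6 fell. Igfbp7, which encodes a secreted binding protein, was at 50.6, 47.4 and 58.6 scaled TPM in spheres and 585, 597 and 753 in SCDM/FGF, a rise of 3.60 (limma, adjusted p = 4.03e-10). The growth factor genes themselves rose after IGF had been removed. Igf1 was at 26.1, 27.0 and 26.6 in spheres and 126, 108 and 120.0 in SCDM/FGF, and Igf2 was at 170.3, 177 and 174 and 721, 987 and 683. Neither pair of groups overlapped, and the rises were 2.11 and 2.17 (limma, adjusted p = 5.54e-10 and 1.08e-07). H19, a noncoding RNA transcribed next to Igf2, rose by 3.05 (limma, adjusted p = 8.17e-08). Both Igf2 and H19 were lower in SCDM/FGF than in SCDM, by 0.63 and 0.59 (limma, adjusted p = 0.00202 and 0.0177). The receptor gene Igf1r changed by 0.10 (limma, adjusted p = 0.388).

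Bdnf, the gene of brain-derived neurotrophic factor, was highest in SCDM/FGF among these 3 groups. Of 17 tested genes of neurotrophins and their receptors 5 rose (29.4%) and 6 fell (35.3%), beside 25.0% and 25.4% of all genes. Bdnf was at 5.67, 5.97 and 5.89 scaled TPM in spheres, 1.61, 1.64 and 1.77 in SCDM and 13.4, 17.4 and 15.2 in SCDM/FGF. SCDM/FGF was above the spheres in every library, by 1.25, and SCDM was below them, by 1.36 (limma, adjusted p = 1.15e-06 and 5.62e-07). Bdnf was higher in SCDM/FGF than in SCDM by 2.61 (limma, adjusted p = 2.99e-09). Of the receptors, Ntrk3 (TrkC) rose by 1.04 and Ngfr, the low-affinity receptor p75 of Schwann cells, fell by 1.46, while Ntrk2 (TrkB) rose by 0.28 (limma, adjusted p = 7.28e-06, 9.99e-07 and 0.0249), the last a call lost when single libraries were left out (highest adjusted p 0.0982). Ntf5, a ligand of TrkB, rose by 0.62 and stayed below 2 scaled TPM (limma, adjusted p = 0.00352). Gdnf, which encodes a survival factor of another family, fell by 1.02 (limma, adjusted p = 9.03e-06).

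Most glial identity genes were lower after differentiation, and none was at 0 in all 3 SCDM/FGF libraries. Of 30 markers of Schwann and satellite cells tested, 19 fell and 6 rose, with a median of −0.56. Their summed level was 1213 to 1247 scaled TPM in spheres and 612 to 694 in SCDM/FGF. In bulk libraries, fewer cells of a type and less RNA per cell cannot be told apart, here and in every list that follows. S100b, a calcium-binding protein gene of glia, fell most, from 78.6, 88.8 and 76.6 in spheres to 10.7, 7.90 and 7.85 in SCDM/FGF. S100b fell by 3.08 from spheres and was 2.37 lower than in SCDM (limma, adjusted p = 3.41e-09 and 2.64e-08). Foxd3, a neural crest transcription factor gene, fell by 1.72, and Fabp7 (a fatty acid binding protein of immature glia) by 1.47 (limma, adjusted p = 7.02e-07 and 7.73e-06). Sox10 and Sox2 were at 31.0 ± 4.95 and 17.7 ± 1.19 scaled TPM in SCDM/FGF (mean ± SD, n = 3), against 83.6 ± 1.55 and 67.7 ± 0.571 in spheres. Gfap, an intermediate filament gene of nonmyelinating Schwann cells, fell by 0.89 (limma, adjusted p = 5.94e-05). Gpr37l1, a receptor gene of satellite glia, rose from 1.13, 1.63 and 1.29 to 6.40, 6.19 and 6.70, by 1.66, and Ncam1 rose by 0.61 (limma, adjusted p = 4.72e-07 and 1.45e-05). With bFGF, 12 of the 30 markers were higher than in SCDM and 6 were lower.

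Myelin genes split. Of 15 tested, 8 fell and 4 rose. Pllp, which encodes plasmolipin, fell from 38.3, 42.5 and 36.9 scaled TPM to 4.83, 3.98 and 4.77, by 2.87, and Cnp (an enzyme of myelin membranes) by 1.04 (limma, adjusted p = 1.59e-07 and 2.68e-07). Pmp22, which encodes a peripheral myelin protein and is also used by other cells, rose by 0.88 (limma, adjusted p = 1.40e-07). Further rises were in the tetraspanin gene Cd9 (0.49) and in Egr2, the transcription factor gene of myelination (0.38; limma, adjusted p = 2.52e-05 and 0.0285).

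Progenitor genes fell in part. Of 23 tested genes of stem and progenitor cells, 15 fell and 3 rose, and the 3 were Hmga2, Myc (by 1.37) and Hmga1 (by 1.07; limma, adjusted p = 1.74e-06 and 9.84e-09). Notch1, which encodes a receptor that maintains progenitors, went from 40.0, 35.0 and 40.6 to 9.73, 6.84 and 8.27, a fall of 2.10, and Id1, an inhibitor of differentiation factors, from 127, 133 and 114 to 27.1, 35.4 and 27.1, a fall of 2.03 (limma, adjusted p = 1.16e-07 and 2.15e-08). Hmga2, a chromatin protein gene of fetal and proliferating cells (ENSMUSG00000056758, chromosome 10, 120361275 to 120476469), was at 56.8, 51.6 and 54.3 in spheres, 7.29, 8.75 and 7.42 in SCDM and 165, 188 and 169 in SCDM/FGF. It rose in SCDM/FGF by 1.66, while in SCDM it fell by 2.65 (limma, adjusted p = 9.84e-09 and 4.02e-10). Nes, which encodes the intermediate filament nestin, fell by 0.43 (limma, adjusted p = 1.47e-05).

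The pan-neuronal and spiral ganglion identity lists were called about as often as all genes tested, of which 25.0% rose and 25.4% fell. The summed level of the pan-neuronal list was 570 to 587 scaled TPM in spheres, 601 to 622 in SCDM and 376 to 398 in SCDM/FGF. Of 25 tested cytoskeletal and pan-neuronal genes, 6 rose (24.0%) and 7 fell (28.0%), and of 20 genes of spiral ganglion neuron identity 4 rose (20.0%) and 5 fell (25.0%). Of 34 synaptic genes, 2 rose (5.88%) and 17 fell (50.0%). Without rescaling, 12 pan-neuronal genes fell in place of 7. Thy1, a surface protein gene that neurons share with fibroblasts, went from 4.01, 4.19 and 2.69 scaled TPM to 26.0, 28.8 and 19.7, and Tubb3, the neuronal tubulin gene, from 5.06, 5.21 and 4.26 to 12.4, 9.92 and 12.7. These rises of 2.48 and 1.11 (limma, adjusted p = 4.68e-07 and 2.12e-06) had their like in SCDM, where the levels were 29.5, 22.9 and 22.4 and 12.0, 11.7 and 11.0. Dcx, a microtubule protein gene of young neurons, was listed at 0 TPM in all 3 SCDM/FGF libraries and at no more than 0.06 in spheres, too low to be tested. Uchl1, a neuronal hydrolase gene, fell from 174, 178 and 172 to 42.2, 42.5 and 56.2, by 1.88, and Gap43, a growth cone protein gene also used by Schwann cells, by 0.84 (limma, adjusted p = 1.75e-08 and 6.72e-06). Of the identity genes, Ntrk2, Ntrk3, Tubb3 and the transcription factor gene Runx1 rose, Runx1 by 0.71, and the developmental factor genes Gata2, Eya1 and Dlx5 and the receptor gene Epha4 fell, Gata2 by 1.18 and Eya1 by 0.71 (limma, adjusted p = 5.99e-05, 0.00725 and 5.75e-05). Map2 changed by −0.44, Snap25 by −0.15, Gata3 by −0.07 and Prox1 by −0.21, none past the threshold (limma, adjusted p = 0.0578, 0.35, 0.639 and 0.0761). The neurofilament gene Nefm was at 6.89, 7.47 and 8.16 in spheres, 11.3, 8.16 and 9.21 in SCDM/FGF and 0.257, 0.196 and 0.293 in SCDM. SCDM alone was near 0, and the rise from spheres to SCDM/FGF was 0.30 (limma, adjusted p = 0.0402). Unc13a, which encodes a priming factor of synaptic vesicles, rose from 1.51, 2.21 and 1.84 to 9.75, 10.5 and 9.72, by 1.95 (limma, adjusted p = 2.29e-07). Slc17a8, the vesicular glutamate transporter VGLUT3, fell from 41.5, 40.2 and 43.2 to 7.86, 5.67 and 8.24, by 2.38 (limma, adjusted p = 7.32e-08).

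Macrophage markers rose as a whole. All 25 tested rose, 24 of them by at least 1.5, beside 4.12% of all genes, with a median of 2.74. Their summed level was 769.6 to 937 scaled TPM in spheres, 6413 to 6958 in SCDM and 6665 to 7094 in SCDM/FGF. Csf1r, the receptor on which macrophages depend, was at 4.46, 6.82 and 4.28 in spheres and 101, 84.5 and 89.4 in SCDM/FGF. The complement subunit gene C1qa was at 22.1, 26.1 and 19.9 and 568, 538 and 524, and the mannose receptor gene Mrc1 at 3.15, 3.27 and 3.14 and 102, 105 and 86.9. In each, all 3 SCDM/FGF libraries were far above the spheres, by 3.92, 4.53 and 4.55 (limma, adjusted p = 4.02e-09, 1.56e-10 and 1.68e-11). The lysosomal marker Cd68 rose by 2.60, the leukocyte phosphatase gene Ptprc (CD45) by 2.37 and Adgre1, which encodes F4/80, by 2.74 (limma, adjusted p = 1.64e-09, 1.48e-08 and 8.09e-09). Against SCDM, 7 of the 25 were higher and 6 lower in SCDM/FGF, near the 21.8% and 21.3% of all genes. Mrc1 was 1.19 higher and Cx3cr1, the fractalkine receptor gene, 1.31 lower with bFGF (limma, adjusted p = 2.34e-07 and 2.51e-05).

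Chemokine and cytokine genes rose more often than they fell, and several differed between the media with and without bFGF. Of 30 tested, 18 rose and 6 fell, and 14 of those that rose did so by at least 1.5. Ccl11, which encodes the eosinophil attractant eotaxin (ENSMUSG00000020676, chromosome 11, 82057823 to 82062955), was at 9.44, 9.07 and 9.27 scaled TPM in spheres, 0.800, 0.710 and 0.992 in SCDM and 683, 684 and 842 in SCDM/FGF. It rose by 6.16 from spheres (standard error 0.09, limma, adjusted p = 1.08e-11), while in SCDM it fell by 2.49 (limma, adjusted p = 3.34e-09). Il33, an alarmin gene of stromal cells, was at 60.9, 65.5 and 67.9 in spheres, 74.3, 72.5 and 65.5 in SCDM and 1892, 2089.7 and 2438 in SCDM/FGF. Spheres and SCDM overlapped and SCDM/FGF stood above both, by 5.02 over spheres and 4.89 over SCDM (limma, adjusted p = 2.97e-11 and 3.64e-11).

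Monocyte attractants rose as well. Ccl2 went from 153, 153 and 148 in spheres to 1696, 1649.9 and 1903 in SCDM/FGF and Ccl7 from 42.7, 43.8 and 42.7 to 1179, 1142 and 1319. Ccl8 and Ccl12 rose by 4.18 and 4.48 from lower levels (limma, adjusted p = 3.87e-07 and 1.50e-07). Ccl2 and Ccl7 rose by 3.52 and 4.78 (limma, adjusted p = 2.36e-11 and 2.32e-11), and both were higher than in SCDM, by 3.21 and 3.11 (limma, adjusted p = 4.05e-11 and 2.92e-10). Csf3, the granulocyte growth factor gene, was at 0.754, 1.48 and 0.546 in spheres and 27.5, 21.0 and 21.2 in SCDM/FGF, and the neutrophil attractant gene Cxcl1 was at 131, 142 and 146 and 637, 455 and 523. Both were above the spheres in every library, by 3.67 and 1.93 (limma, adjusted p = 1.41e-08 and 7.71e-08). Lif, a cytokine of the interleukin 6 family, rose by 3.15 (limma, adjusted p = 3.70e-08). Cxcl12, which attracts cells that carry Cxcr4, fell from 696, 701 and 704 to 422, 379 and 252, by 1.03, although it was at 1629.7, 1650.2 and 1591 in SCDM (limma, adjusted p = 0.00116). Cxcl10, an interferon-induced chemokine gene, fell by 1.57 and Cx3cl1 (fractalkine) by 1.00 (limma, adjusted p = 0.000104 and 6.90e-08). The macrophage markers, some of which belong to cells that also make chemokines, moved with these genes between spheres and SCDM/FGF, and their part in the chemokine result was not tested. Between SCDM and SCDM/FGF, Ccl11, Il33 and Ccl7 differed by at least 3 on the log2 scale, and the part of macrophages in this was not tested either.

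**Figure D4:**
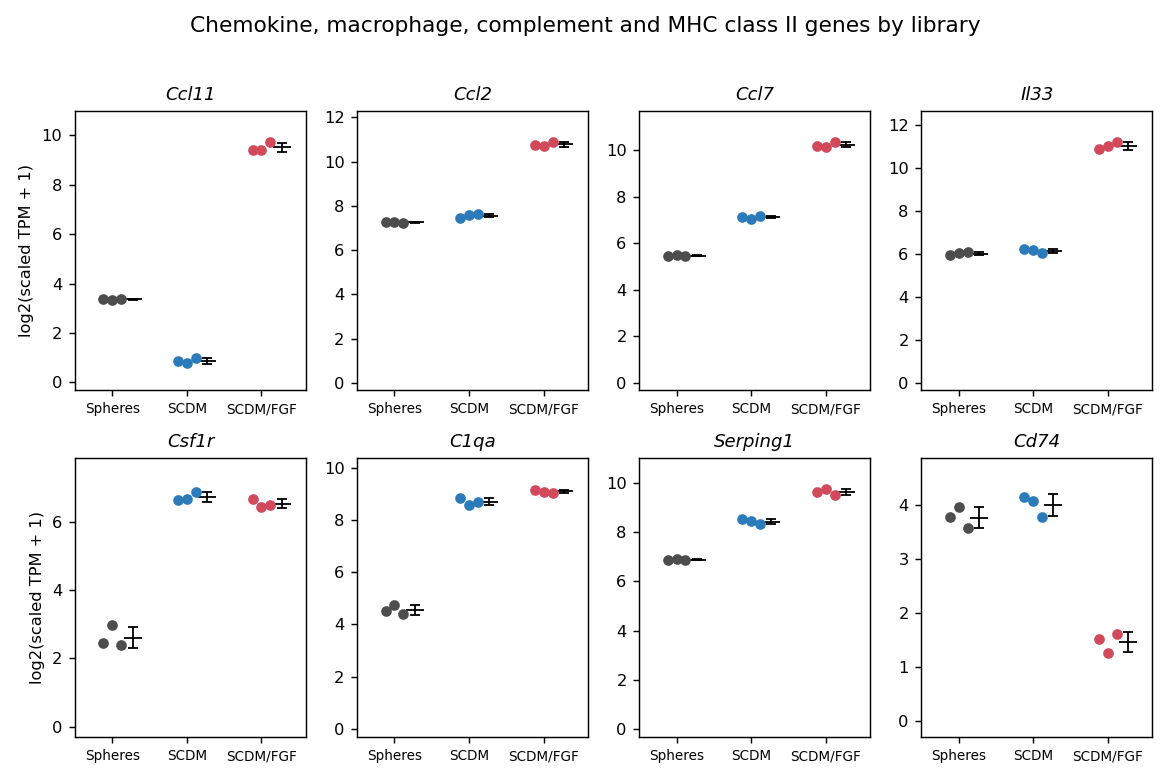
Each panel plots 1 gene as log2(scaled TPM + 1) on the vertical axis, with 1 point per library in spheres, SCDM and SCDM/FGF and the mean with its SD (n = 3) beside the points. Ccl11, Ccl2, Ccl7 and Il33 are highest in SCDM/FGF, Csf1r and C1qa are high in both media, Serping1 is higher in SCDM/FGF than in spheres, and Cd74 is lower in SCDM/FGF (1.77) than in SCDM (15.2 scaled TPM).

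Complement genes rose in 15 of 21 cases and fell in 3, but the list shares C1qa, C1qb and C1qc with the macrophage markers, which rose as given above and whose part in this result was not tested. Serping1, which encodes the C1 inhibitor, rose by 2.73, and Cd55, which encodes a further inhibitor of complement, by 3.31 (limma, adjusted p = 2.07e-08 and 1.16e-08). The central components C3 and C4b fell, by 1.08 and 1.32, as did the inhibitor gene Cd46, which is low here, by 0.54 (limma, adjusted p = 0.000109, 1.74e-05 and 0.0064). C3 was at 681, 719 and 668 in spheres and 387, 288 and 312 in SCDM/FGF. Genes of antigen presentation were lower. Of 20 tested, 13 fell and the other 7 did not pass, and without rescaling 16 fell. Cd74, the invariant chain of MHC class II, was at 12.7, 14.6 and 10.9 in spheres and 1.85, 1.38 and 2.06 in SCDM/FGF, a fall of 2.31, and the class I gene H2-K1 fell by 0.73 (limma, adjusted p = 5.28e-06 and 2.07e-06). H2-Q4 and H2-Q7, class I genes of a family whose reads may have been shared out between members, fell by 1.46 and 1.42 (limma, adjusted p = 4.41e-09 and 1.77e-05).

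Interferon-stimulated genes were uneven between libraries. Of 35 tested, 10 rose (28.6%, beside 25.0% of all genes) and 1 fell (2.86%, beside 25.4%), but 16 rose without SCDM/FGF replicate 3 and 6 rose without sphere replicate 2. The gene that fell was Irf1, a transcription factor of the response, by 0.49 (limma, adjusted p = 4.46e-05), and without SCDM/FGF replicate 1 the number that fell was 3. Isg15, a ubiquitin-like protein gene, was at 29.6, 28.4 and 25.2 scaled TPM in spheres and 105, 36.0 and 31.8 in SCDM/FGF. The groups did not overlap, but replicate 1 stood apart and the change of 0.82 did not pass (limma, adjusted p = 0.0856). Bst2, the antiviral tether tetherin, was even across the replicates at 207, 214 and 167, against 53.6, 55.3 and 54.5 in spheres (rise 1.82, limma, adjusted p = 1.61e-07).

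Cartilage genes were lower in SCDM/FGF than in spheres, and some of them were higher in SCDM. Of 18 tested genes of chondrocytes and osteoblasts, 14 fell and 1 rose, with a median of −1.35, and 8 fell by at least 1.5 beside 1.92% of all genes. Col2a1, the collagen of cartilage (ENSMUSG00000022483, chromosome 15, 97975602 to 98004695), was at 528, 487 and 485 scaled TPM in spheres, 4182, 4359 and 4416 in SCDM and 34.2, 50.7 and 19.3 in SCDM/FGF. The 3 groups did not overlap and lay on both sides of the spheres. Col2a1 fell by 3.91 in SCDM/FGF (standard error 0.25, limma, adjusted p = 1.83e-07) and was 3.11 higher in SCDM than in spheres (limma, adjusted p = 1.09e-06). Acan, the cartilage proteoglycan aggrecan, was at 7.23, 7.14 and 6.70, 50.0, 52.9 and 51.8 and 0.00980, 0.685 and 0.0102 in spheres, SCDM and SCDM/FGF, near 0 in SCDM/FGF. Its fall from spheres was 2.74 (limma, adjusted p = 1.24e-07).

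The partner chains of type II collagen were lower in SCDM/FGF too. Col9a1, which encodes a chain that decorates its fibrils, was at 88.0, 82.2 and 84.1, 282, 245 and 244 and 3.26, 2.95 and 0.722 in spheres, SCDM and SCDM/FGF, and Col11a2, which encodes a chain within them, at 33.8, 34.2 and 36.2, 155, 167 and 175 and 3.36, 7.21 and 2.05. Both fell in SCDM/FGF, by 4.80 and 2.90 (limma, adjusted p = 6.30e-08 and 4.14e-06), and were higher in SCDM than in spheres, by 1.59 and 2.22 (limma, adjusted p = 0.000407 and 3.40e-05). Col9a2 fell by 3.31 and Col9a3 by 5.08 (limma, adjusted p = 2.77e-09 and 6.21e-11), and Col9a3 alone of this set was not higher in SCDM than in spheres (−0.13, limma, adjusted p = 0.344). Bone genes fell as well. Phex, a protease gene of osteoblasts, went from 45.3, 46.6 and 47.4 to 4.93, 5.18 and 5.36, by 2.95, and the transcription factor gene Runx2 fell by 1.52 and Sp7 fell by 1.69 (limma, adjusted p = 1.86e-10, 6.90e-08 and 1.56e-06). Spp1, which encodes osteopontin and is also made by macrophages, was the gene of this list that rose, from 12232, 13295 and 12329.7 to 30364, 30868 and 29604, by 1.26 (limma, adjusted p = 9.38e-07). In SCDM, Spp1 was at 4436, 5586 and 5984, below the spheres, and the part of macrophages in these levels was not tested.

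**Figure D5:**
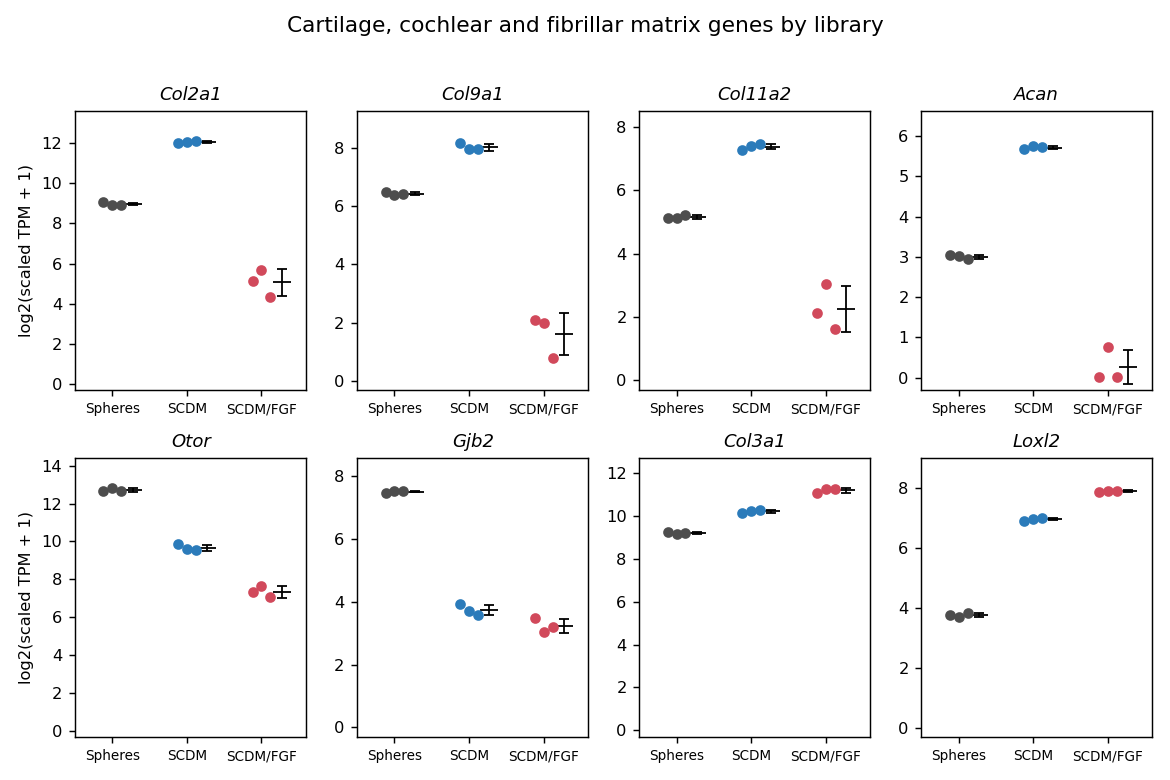
Each panel plots 1 gene as log2(scaled TPM + 1) on the vertical axis, with 1 point per library in spheres, SCDM and SCDM/FGF and the mean with its SD (n = 3) beside the points. Col2a1, Col9a1, Col11a2 and Acan are higher in SCDM and lower in SCDM/FGF than in spheres, Otor and Gjb2 are lower in both, and Col3a1 and Loxl2 are higher in both.

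Collagens as a class fell more often than they rose, 19 against 12 of 39 tested, with 22 lower and 11 higher than in SCDM. The fibrillar gene Col3a1, abundant in loose connective tissue, was among those that rose, at 599, 559 and 587 scaled TPM in spheres and 2113, 2457 and 2426 in SCDM/FGF, with a rise of 2.00 (limma, adjusted p = 1.13e-06). It was also higher than in SCDM, by 0.98 (limma, adjusted p = 0.000398). Col1a1, the collagen of bone, skin and scar, was at 40.5, 38.1 and 40.9 in spheres, 62.7, 107 and 80.3 in SCDM/FGF and 368, 437 and 379 in SCDM. It rose from spheres by 1.01 and was 2.26 lower than in SCDM (limma, adjusted p = 0.000284 and 4.99e-07). Col12a1 showed the same order, at 8.54, 57.0 and 443 on average, and rose by 2.50 (limma, adjusted p = 5.56e-06). The basement membrane genes Col4a1 and Col4a2 fell by 0.86 and 0.79, and Col6a1, Col6a2 and Col6a3, of the beaded filaments around cells, by 0.81, 1.27 and 1.18 (limma, adjusted p of at most 1.70e-05).

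Genes of the cochlear connective tissue fell. Of 17 tested genes of cochlear fibrocytes or linked to deafness, 10 fell and 5 rose. Otor, which encodes the secreted protein otoraplin of the cochlea (ENSMUSG00000027416, chromosome 2, 143078473 to 143081713), was at 6443, 7228 and 6515 scaled TPM in spheres, 931, 766 and 744 in SCDM and 159, 201 and 132 in SCDM/FGF. Each group was apart, with a fall of 5.37 (limma, adjusted p = 2.75e-10). The gap junction genes Gjb2 and Gjb6, whose loss causes deafness, went from 177, 181 and 182 to 10.1, 7.18 and 8.18 and from 65.1, 65.5 and 65.9 to 12.7, 6.41 and 6.86. They fell by 4.27 and 2.84 (limma, adjusted p = 2.44e-10 and 4.60e-07), in SCDM as in SCDM/FGF. Car3, a carbonic anhydrase gene, was at 68.4, 78.0 and 71.0 in spheres, 145, 115 and 93.8 in SCDM and 1.73, 0.917 and 0.376 in SCDM/FGF. It fell by 5.25 from spheres to SCDM/FGF (limma, adjusted p = 6.57e-09), while every SCDM library lay above the spheres. Coch, which encodes the matrix protein cochlin, fell by 1.80 and Tbx18, a transcription factor gene of fibrocytes, by 1.22 (limma, adjusted p = 1.18e-05 and 1.05e-07). Cemip, a hyaluronan-degrading protein gene, rose by 2.67 (limma, adjusted p = 4.39e-08), and Emilin2, Slc7a11 and Sfrp1 rose by less than 1.

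Of 61 matrix glycoproteins and proteoglycans, 27 rose and 22 fell, and without rescaling 23 rose and 27 fell, so the balance of this class depends on the scaling. Loxl2, which cross-links collagen (ENSMUSG00000034205, chromosome 14, 69609068 to 69695834), went from 12.5, 11.8 and 13.2 scaled TPM in spheres to 229.7, 237 and 237 in SCDM/FGF. The libraries were tight and far apart, with a rise of 4.13 (standard error 0.05, limma, adjusted p = 2.82e-12). Ogn, a small leucine-rich proteoglycan gene, rose by 3.67, Thbs1 (thrombospondin 1) by 2.46 and Fn1 (fibronectin) by 1.11, but each was lower than in SCDM, by 2.18, 0.64 and 0.85 (limma, adjusted p of at most 4.76e-07 against spheres and 8.90e-06 against SCDM). Eln, the elastin gene, was at 13.1 in spheres and 12.6 in SCDM/FGF, and at 600.5 in SCDM. Its change from spheres was −0.25 (limma, adjusted p = 0.556) and its difference from SCDM was −5.67 (limma, adjusted p = 9.40e-08). Ncan, the neurocan gene of nervous tissue, fell by 3.20 (limma, adjusted p = 7.52e-10). Against SCDM, 36 of the 61 genes were lower and 16 higher.

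Several enzymes that cut the matrix rose. Of 32 proteases and inhibitors, 15 rose and 12 fell, 8 of those that rose by at least 1.5 and 1 of those that fell. Plau, which encodes the plasminogen activator urokinase, was at 8.50, 11.8 and 9.28 scaled TPM in spheres and 175, 189.8 and 156 in SCDM/FGF, and its receptor gene Plaur at 17.2, 15.5 and 18.4 and 50.9, 59.4 and 68.5. Neither overlapped, with rises of 4.02 and 1.74 (limma, adjusted p = 2.07e-09 and 4.19e-06). Mmp3, which encodes stromelysin 1, was at 1437, 1575 and 1479 in spheres, 95.2, 158 and 204 in SCDM and 5312, 4878 and 5206 in SCDM/FGF, and the collagenase gene Mmp13 at 46.3, 46.5 and 48.4, 12.5, 19.5 and 25.8 and 227, 218 and 244. SCDM/FGF was higher than spheres by 1.78 and 2.26, and higher than SCDM by 5.13 and 3.56 (limma, adjusted p = 2.96e-05, 2.36e-06, 5.29e-09 and 5.85e-08). Timp1, an inhibitor of these enzymes, rose by 2.45, about as in SCDM (2.17), and Timp2 fell by 0.70 (limma, adjusted p = 8.37e-10, 2.15e-09 and 1.14e-08).

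Contractile genes were more often lower than higher with bFGF against SCDM. Of 19 smooth muscle and myofibroblast genes tested, 10 rose and 5 fell, and 11 were lower and 4 higher than in SCDM. Tagln, which encodes the actin-binding protein SM22, was at 0.534, 1.15 and 0.764 scaled TPM in spheres, 192, 171 and 142 in SCDM and 8.47, 25.2 and 10.6 in SCDM/FGF. It rose by 2.98 and was 3.56 lower than in SCDM (limma, adjusted p = 9.85e-06 and 2.62e-06). Acta2, the smooth muscle actin gene, rose by 1.82 and Myl9, a myosin light chain gene, by 3.09 (limma, adjusted p = 8.06e-06 and 7.57e-08), and both were lower than in SCDM by 3.53 and 2.55 (limma, adjusted p = 3.68e-08 and 3.64e-07). Of 29 general fibroblast genes 14 rose and 7 fell, and without rescaling 13 rose and 13 fell. Pdgfra, the receptor gene used as a fibroblast marker, went from 128 ± 9.98 to 148 ± 10.5 (mean ± SD, n = 3, overlapping groups, rise 0.20, limma, adjusted p = 0.0223) and the transcription factor gene Snai2 fell by 1.11 (limma, adjusted p = 1.70e-05).

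Markers of other cell types were mixed. Of 13 endothelial genes 4 rose (Cdh5, Emcn, Flt1 and Vwf) and 4 fell (Egfl7, Cldn5, Erg and Pecam1), 30.8% in each direction and so near the 25.0% and 25.4% of all genes. Cdh5, which encodes VE-cadherin, went from 7.55, 6.56 and 7.49 to 36.9, 34.3 and 38.7 scaled TPM (rise 2.20, limma, adjusted p = 2.08e-08), whereas Pecam1, which encodes CD31, was under 3 in every library and fell by 0.61 (limma, adjusted p = 0.0266). Emcn, which encodes endomucin, rose by 1.35 and Egfl7, a secreted endothelial protein gene, fell by 1.93 (limma, adjusted p = 9.84e-08 and 6.68e-08). Of 6 epithelial genes tested, 5 fell (Epcam, Cdh1, Krt8, Krt18 and Cldn3) and 1 rose (Krt19), at a summed level of 3.42 to 4.80 scaled TPM in SCDM/FGF, and without sphere replicate 3 the number that fell was 3. Of 12 hair cell and supporting cell genes 7 fell and 2 rose, Epyc (epiphycan) by 1.44 and the motor protein gene Myo7a by 1.13 (limma, adjusted p = 0.000181 and 2.49e-05). Of the 5 melanocyte genes tested 2 fell (Kit by 2.74, limma, adjusted p = 6.17e-07, and Sox10) and 1 rose (Gpnmb, which macrophages also express, by 0.95, limma, adjusted p = 6.98e-07).

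Glycolytic enzymes and genes induced by low oxygen rose together. Of 30 tested, 24 rose and 3 fell, 18 of them by at least 1.5 beside 4.12% of all genes, with a median of 1.74. Without rescaling, 22 rose and 5 fell. These genes are known targets of the hypoxia-inducible factors, which bind a short element whose core can read ACGTG, the only form counted here. In the 250 bases upstream of the RefSeq gene start (build GRCm38.p6), this core stood on either strand in 17 of the 29 list members with a promoter in the table (58.6%), and in 18.5% of 27025 promoters of all genes. Of 44 cell cycle promoters, 31.8% held it, and of 19 macrophage marker promoters 0. The promoters of the 4 members with the highest rises among those with a mean of at least 5 scaled TPM and a promoter in the table are printed 5′ to 3′, with ACGTG or its complement CACGT in capitals, because the members moved together. Adm lies at chr7:110627407-110627656 on the plus strand, Pgk1 at chrX:106186850-106187099 on the plus strand, P4ha2 at chr11:54100674-54100923 on the plus strand and Pfkl at chr10:78009808-78010057 on the minus strand. The windows of Pgk1 and P4ha2 hold ACGTG on either strand and those of Adm and Pfkl do not. This says only that these letters are not in them, and other forms of the element were not searched for. Pfkl, which encodes a subunit of the glycolytic enzyme phosphofructokinase, rose by 2.40 (limma, adjusted p = 4.02e-11).
Adm: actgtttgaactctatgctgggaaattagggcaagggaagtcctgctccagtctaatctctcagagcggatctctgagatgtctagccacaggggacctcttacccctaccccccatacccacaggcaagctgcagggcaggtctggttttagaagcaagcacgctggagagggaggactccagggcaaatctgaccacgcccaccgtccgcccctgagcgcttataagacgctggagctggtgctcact
Pgk1: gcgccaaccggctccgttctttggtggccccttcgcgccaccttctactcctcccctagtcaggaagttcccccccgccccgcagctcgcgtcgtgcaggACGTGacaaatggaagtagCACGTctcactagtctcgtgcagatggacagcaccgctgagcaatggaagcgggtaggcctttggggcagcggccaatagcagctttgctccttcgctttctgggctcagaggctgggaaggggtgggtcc
P4ha2: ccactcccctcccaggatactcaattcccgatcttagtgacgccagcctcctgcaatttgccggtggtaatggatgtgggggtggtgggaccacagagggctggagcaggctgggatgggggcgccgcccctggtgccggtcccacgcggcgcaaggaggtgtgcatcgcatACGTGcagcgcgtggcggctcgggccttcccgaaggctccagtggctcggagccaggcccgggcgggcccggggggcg
Pfkl: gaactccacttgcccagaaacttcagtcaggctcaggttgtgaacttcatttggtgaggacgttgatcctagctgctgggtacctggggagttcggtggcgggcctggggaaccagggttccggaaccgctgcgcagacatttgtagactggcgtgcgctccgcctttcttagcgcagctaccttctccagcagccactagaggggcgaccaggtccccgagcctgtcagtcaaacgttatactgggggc

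Adm, which encodes the vasodilator peptide adrenomedullin (ENSMUSG00000030790, chromosome 7, 110627661 to 110629820), was at 0.974, 1.06 and 1.23 scaled TPM in spheres, 25.8, 26.3 and 26.8 in SCDM and 221, 273 and 204 in SCDM/FGF. Its rise of 6.80 (standard error 0.20, limma, adjusted p = 5.56e-10) was the third highest of the named genes, and it was 3.09 above SCDM (limma, adjusted p = 2.77e-07). Pgk1, which encodes the glycolytic enzyme phosphoglycerate kinase, went from 144, 155 and 144 to 995, 1184 and 993, by 2.82, and P4ha2, a collagen prolyl hydroxylase subunit, from 19.6, 19.8 and 18.1 to 108, 131 and 105, by 2.52 (limma, adjusted p = 1.54e-10 and 7.29e-09). In neither did the groups overlap. Slc16a3, the lactate exporter MCT4, stands outside the list and rose from 2.44, 3.53 and 2.02 to 191, 228 and 192, by 5.82 (limma, adjusted p = 6.39e-11). Among the enzyme genes Hk2 rose by 2.13, Pfkl by 2.40, Eno1 by 2.26, Pkm by 1.79 and Ldha by 1.23 (limma, adjusted p of at most 3.28e-08). The glucose transporter Slc2a1 rose by 1.95, and Egln3 and Car9, used as reporters of hypoxia, by 2.25 and 1.32 (limma, adjusted p = 2.75e-10, 4.26e-06 and 0.0083). Vegfa, a further target, rose by 0.87 (limma, adjusted p = 6.37e-07). Eno2, Ddit4 and Ndrg1 fell, by 0.97, 0.84 and 0.48 (limma, adjusted p = 4.17e-06, 3.05e-07 and 0.000313). Against SCDM, 21 of the 30 genes were higher and 2 lower. Nuclear genes of the respiratory chain moved little, with a median of 0.08 over 29 genes. Of these 8 rose and 1 (Ndufa4, by 0.47, limma, adjusted p = 0.00193) fell, and without rescaling 16 fell and the other 13 did not pass. Leaving out a library gave from 4 rises (without SCDM/FGF replicate 3 or sphere replicate 1) to 13 (without sphere replicate 2).

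Cell cycle genes rose almost without exception and by small amounts. Of 55 tested genes of DNA replication and mitosis, 54 rose in limma (50 without rescaling), with a median of 0.91, and a single gene, Rrm2, passed 1.5. Gins1, the remaining gene, changed by 0.19 (limma, adjusted p = 0.319). Promoters of cell cycle genes often carry CCAAT, the element of the factor NF-Y. It stood on either strand in 30 of 44 list promoters of 250 bases (68.2%) and in 37.5% of all 27025. The windows of 2 members with large changes are printed 5′ to 3′ to show the element, with CCAAT or its complement ATTGG in capitals, Rrm2 at chr12:24708004-24708253 on the plus strand and Uhrf1 at chr17:56303087-56303336 on the plus strand.
Rrm2: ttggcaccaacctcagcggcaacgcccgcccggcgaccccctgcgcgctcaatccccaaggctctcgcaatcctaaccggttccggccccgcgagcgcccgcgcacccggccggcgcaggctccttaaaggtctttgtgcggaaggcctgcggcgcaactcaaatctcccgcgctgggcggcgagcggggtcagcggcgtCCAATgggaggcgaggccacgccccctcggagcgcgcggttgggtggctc
Uhrf1: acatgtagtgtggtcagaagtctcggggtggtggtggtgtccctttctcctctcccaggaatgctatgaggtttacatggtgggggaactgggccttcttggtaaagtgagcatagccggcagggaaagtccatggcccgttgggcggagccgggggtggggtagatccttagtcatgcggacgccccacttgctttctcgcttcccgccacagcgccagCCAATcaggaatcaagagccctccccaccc

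Rrm2, a subunit of the enzyme that makes deoxyribonucleotides, was at 9.06, 8.99 and 8.31 scaled TPM in spheres, 17.6, 19.6 and 21.3 in SCDM and 23.1, 36.5 and 32.7 in SCDM/FGF, and Uhrf1, which maintains DNA methylation, at 8.58, 7.47 and 7.77, 14.3, 15.0 and 15.4 and 21.4, 26.3 and 24.1. Every sphere library was below the others, with rises of 1.68 and 1.48 (limma, adjusted p = 3.47e-06 and 1.30e-06). Mki67, the proliferation marker Ki-67, was at 5.37, 4.71 and 6.30 in spheres and 12.4, 15.9 and 11.2 in SCDM/FGF, a rise of 1.12 (limma, adjusted p = 4.47e-05), and at 16.0, 20.5 and 19.9 in SCDM. SCDM had a like median (0.95), and 13 genes were higher and 12 lower with bFGF, near the 21.8% and 21.3% of all genes. Cdc6, which is needed to start DNA replication, was higher with bFGF (by 0.65, limma, adjusted p = 0.00524) and Kif20a, a motor protein gene of cell division, lower (by 0.75, limma, adjusted p = 0.00122), both chosen after their values were seen. Of 18 cyclin D, kinase and inhibitor genes, 10 rose and 4 fell (Cdkn1c, Gas1, Cdkn1b and Cdk4). The inhibitor gene Cdkn2a, which encodes p16 and p19ARF, rose from 25.6, 36.8 and 28.0 to 188, 166 and 192, by 2.57, and E2f8, a repressor of replication genes, by 2.06 (limma, adjusted p = 8.45e-09 and 5.12e-06). Cdkn1c, which encodes the inhibitor p57 of quiescent cells, fell from 52.8, 63.5 and 60.2 to 12.2, 17.9 and 15.5, by 1.89 (limma, adjusted p = 4.64e-06). Cdkn1a (p21) rose by 0.29 (limma, adjusted p = 0.00145). Ccnd1, described above among the FGF targets, belongs to this group too.

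Cholesterol synthesis genes rose slightly and evenly from spheres to SCDM/FGF. Of 24 tested 21 rose and the other 3 did not pass, with a median of 0.44, but without rescaling 12 rose and 2 fell. Against SCDM, 22 were higher and the other 2 did not pass. Fdps, a synthesis enzyme gene, went from 119, 122 and 106 to 191, 205 and 216 scaled TPM, with no overlap and a rise of 0.82 (limma, adjusted p = 5.76e-07). Genes of fatty acid synthesis did not share this, with 6 up and 5 down of 15 and, without rescaling, 2 up and 8 down. Srebf1, their main transcription factor gene, fell from 146, 135 and 131 to 74.4, 67.6 and 69.0, by 0.95 (limma, adjusted p = 6.15e-07).

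Stress-related lists rose in part. Of 22 targets of the oxidant sensor NRF2 and metallothioneins, 16 rose and 4 fell, and 18 were higher than in SCDM while the other 4 did not pass. Without rescaling 11 rose and 5 fell. Of the metal-binding metallothionein genes, Mt2 was at 1369, 1457 and 1416 scaled TPM in spheres, 829, 940.1 and 1004 in SCDM and 6266, 6518 and 5649 in SCDM/FGF. Mt2 rose by 2.12 and Mt1 by 1.79, with no overlap in Mt2 (limma, adjusted p = 3.18e-09 and 1.68e-09). Fth1, the iron store ferritin heavy chain, rose by 1.18 (limma, adjusted p = 4.12e-08). Glutathione transferase genes split, in that Gsta3 rose by 2.27 while Gsta4 fell by 2.25 and Gsta1 fell by 3.03 (limma, adjusted p = 3.32e-06, 2.90e-08 and 8.05e-07). Gsta2 and Gstm1 were the other genes that fell. Gsta1 and Gsta2 are close copies, so reads may have been shared between them. Of 28 genes of the ATF4 and unfolded protein responses, 18 rose and 3 fell (Atf3, Ddit3 and Herpud1). Against SCDM, 17 were lower and 8 higher. Without rescaling 13 rose and 7 fell. Xbp1, a transcription factor gene of the unfolded protein response, went from 171, 170.3 and 169 to 527, 487 and 476. It rose by 1.54 and was 2.01 above SCDM (limma, adjusted p = 7.26e-10 and 1.08e-10). The amino acid transporter gene Slc7a5, an ATF4 target, rose by 1.12 and differed by −1.91 from SCDM (limma, adjusted p = 1.30e-07 and 1.74e-09). Of 24 p53 targets, 15 rose and 8 fell, all by less than 1.5, and without rescaling 9 rose and 8 fell.

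Lysosomal genes rose in 15 and fell in 12 of 30 cases, and without rescaling in 9 and 15. Ctsl, which encodes a cathepsin protease, was at 1198, 1264 and 1166 scaled TPM in spheres, 1038, 1071 and 1087 in SCDM and 3576, 3514 and 3766 in SCDM/FGF. Ctsl rose by 1.58 and was 1.76 above SCDM (limma, adjusted p = 4.03e-10 and 1.75e-10), while Ctss, which also counts among the macrophage markers, rose by 1.56 and was level with SCDM (−0.05, limma, adjusted p = 0.497). The macrophage markers also rose from spheres, and their part in the changes of lysosomal genes was not tested. Tfeb, the transcription factor gene of lysosomes, fell by 1.34 (limma, adjusted p = 1.04e-07).

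Developmental signalling genes changed gene by gene. Of 32 Wnt genes 9 rose (28.1%, near the 25.0% of all genes) and 16 fell (50.0%, beside 25.4%). Sfrp4, which encodes a secreted Wnt antagonist, went from 6.69, 7.78 and 6.50 scaled TPM in spheres to 398, 343 and 299.8 in SCDM/FGF, a rise of 5.44, and the Wnt ligand gene Wnt10b from 17.5, 16.0 and 18.1 to 2.64, 1.61 and 2.69, a fall of 2.47 (limma, adjusted p = 4.03e-10 and 2.19e-07). Lef1, a transcription factor and target gene of the pathway, fell by 1.18 (limma, adjusted p = 2.32e-05). Of 38 TGF-beta and BMP genes 15 rose (39.5%) and 17 fell (44.7%). Inhba, which encodes the activin A subunit, was at 0.576, 0.927 and 0.739 in spheres and 21.8, 23.5 and 17.9 in SCDM/FGF, and Ccn2, the matrix-associated target CTGF, at 32.8, 29.2 and 36.4 and 346, 367 and 331. They rose by 3.65 and 3.37 (limma, adjusted p = 2.23e-09 and 6.51e-10). Tgfb2 and Tgfb3 fell, by 2.44 and 1.43, and Tgfb1 by 0.17 (limma, adjusted p = 3.23e-09, 2.12e-07 and 0.0121). In the Notch pathway 8 of 16 genes fell and 3 rose (Notch4, Notch3 and Mfng). The targets Hey1 and Heyl fell by 1.59 and 1.95 with Notch1, while Notch4, a receptor gene of endothelium, rose by 1.68 (limma, adjusted p = 3.32e-06, 3.58e-08 and 2.78e-06). Of 43 axon guidance genes 12 rose (27.9%, near the 25.0% of all genes) and 21 fell (48.8%, beside 25.4%). Sema3a, which encodes a repellent of sensory axons, was at 1.36, 1.51 and 1.73 in spheres and 27.4, 28.1 and 24.9 in SCDM/FGF. It rose by 3.46, whereas the receptor gene Robo2 fell from 147, 128 and 141 to 51.5, 39.0 and 45.3, by 1.60 (limma, adjusted p = 4.03e-10 and 1.64e-07). Of 30 sodium and potassium channel genes 5 rose (Scn7a, Scn3b, Kcnh1, Kcnn4 and Kcnt2, all low) and 15 fell, and the voltage-gated genes Kcna6 and Kcna1 fell by 1.74 and 1.87 (limma, adjusted p = 9.84e-09 and 7.22e-07).

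Among the genes with the highest changes of all, several belong to families of granule proteases of immune cells. Mcpt8, which encodes a mast cell and basophil protease (ENSMUSG00000022157, chromosome 14, 56082166 to 56085273), was at 0.102, 0 and 0.109 scaled TPM in spheres, 1.68, 1.74 and 1.76 in SCDM and 179.5, 268 and 175 in SCDM/FGF, and Gzme, a granzyme gene, at 0, 0.0962 and 0, 5.40, 2.67 and 6.10 and 195, 261 and 138. Both stood near 0 in spheres, and their fitted rises of 7.58 and 7.54 (limma, adjusted p = 2.97e-11 and 1.32e-09) depend on the pseudocount. Gzmb, the granzyme of cytotoxic lymphocytes, went the other way, from 255, 291 and 268 in spheres to 0.176, 0.635 and 0.549 in SCDM/FGF and 1.12, 0.887 and 0.983 in SCDM. Gzmb fell by 7.56 from spheres to SCDM/FGF and by 7.09 from spheres to SCDM (limma, adjusted p = 1.08e-11 and 3.59e-11). These genes have close copies side by side, so the share of reads given to each is uncertain. Fcgr2b, an inhibitory antibody receptor gene of macrophages and B cells, rose by 5.17, Reg3g, an antibacterial lectin gene, by 5.37, and Wfdc17, a secreted protein gene, by 5.10 (limma, adjusted p = 5.59e-11, 4.92e-09 and 1.76e-09). Inmt, a methyltransferase gene, rose from 0.0932, 0.157 and 0.235 to 50.1, 52.9 and 38.3, by 5.36 (limma, adjusted p = 4.53e-10). Gm33228, a predicted gene, rose by 5.76, and the pseudogene Rpl35a-ps6, whose reads could belong to its parent gene, fell by 5.57 (limma, adjusted p = 7.29e-09 and 0.00415). Among the lowest changes, Cdo1, which encodes cysteine dioxygenase, fell by 4.30, the Wnt receptor gene Fzd9 fell by 3.78 and Wfdc3 fell by 4.82 (limma, adjusted p = 2.47e-09, 3.31e-09 and 4.72e-11).

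In the direct comparison with SCDM, in which the media differ by bFGF, 3491 genes (21.8%) were higher in SCDM/FGF and 3419 (21.3%) lower at an adjusted p under 0.05 in limma. With a difference of at least 1.5, 462 (2.88%) were higher and 315 (1.97%) lower. Of all genes named here, those that differed most between the media were Ccl11 (8.65), Mcpt8 (6.23), Mmp3 (5.13), Gzme (5.13) and Il33 (4.89) on the high side and Col2a1 (−7.02), Col9a1 (−6.39), Car3 (−5.92), Eln (−5.67) and Acan (−5.46) on the low side (limma, adjusted p of at most 9.40e-08 in each). Changes from spheres in the media share the sphere libraries, so their values are given side by side and their likeness was not tested.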

How the data were processed

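RNA was measured in 12 poly(A)-selected libraries, 3 per group, of which 6 (3 sphere and 3 SCDM/FGF) carry the comparison. The authors trimmed reads with SeqPrep and Sickle, and their methods name TopHat for alignment, RSEM for quantification and EdgeR for testing. The submitters' processing notes also name Cufflinks. The genome build and tool versions are not given in the sources used here. The deposited values are TPM with 2 decimals, although the methods speak of FPKM. No counts were analysed here, so the depth of each library, and the counting error that follows from it, are unknown. Gene positions are from GENCODE M21 (GRCm38), in which 55227 of the 55487 identifiers were found.

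TPM were rescaled by a trimmed mean of log2 ratios to the average library, leaving out 30% at each end, over the 8434 genes that reached 5 TPM in each of the 12 libraries. The filter kept genes that reached 1 TPM in 3 or more libraries. The log2(scaled TPM + 1) values were fitted with limma 3.58.1 (trend) in R 4.3.3, with 1 mean per group over all 12 libraries, including 3 libraries of the small-molecule group labelled FIBCL, whose table columns read FIBC. P-values were adjusted by Benjamini-Hochberg over all genes tested. Tables used pandas 2.3.3 and plots matplotlib 3.10.9 under Python 3.11.15. The labels call the replicates biological but do not say whether they came from separate cultures or animals, so p-values measure the spread between these libraries. Scripts were tested on simulated data.

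Members and lists were chosen with earlier results of these data known. Genes were named by a rule with 4 parts. The first took the 12 highest and 12 lowest changes among genes that passed the threshold, averaged 10 scaled TPM or more and had no overlap. The second took up to 4 genes per list by size of change, with a mean of at least 5. The third was a fixed set of 36 genes. The last took, among the first and second, the 8 highest and 8 lowest differences from SCDM. These genes were chosen after their values were seen: Adgre1, Areg, Btc, C3, C4b, Car9, Ccl2, Ccl8, Cd46, Cd55, Cd9, Cdc6, Cdh1, Cdk4, Cdkn1b, Cemip, Cldn3, Cldn5, Col12a1, Col3a1, Col4a1, Col4a2, Col6a1, Col6a2, Col6a3, Csf3, Cx3cl1, Cx3cr1, Cxcl1, Cxcl10, Cxcl12, Ddit3, Ddit4, Dlx5, Dusp5, Egln3, Egr1, Egr2, Eln, Emilin2, Eno1, Eno2, Epcam, Epha4, Erbb2, Erbb3, Erg, Fgf2, Fgfr4, Flt1, Fn1, Fth1, Gas1, Gdnf, Gins1, Gpr37l1, Gsta2, Gstm1, H2-K1, Herpud1, Hey1, Heyl, Hk2, Hmga1, Igf1, Il17rd, Irf1, Isg15, Kcna1, Kcnh1, Kcnn4, Kcnt2, Kif20a, Krt18, Krt19, Krt8, Ldha, Mfng, Mmp3, Mt1, Myc, Myo7a, Ncam1, Ndrg1, Nefm, Notch3, Ntf5, Pdgfra, Pecam1, Pkm, Plaur, Pmp22, Ptprc, Runx1, Runx2, Scn3b, Scn7a, Sdc4, Serping1, Sfrp1, Slc2a1, Slc7a11, Sp7, Spp1, Spred1, Spred2, Spred3, Spry1, Tbx18, Tgfa, Tgfb1, Tgfb3, Thbs1, Timp2, Vegfa and Vwf. Pairing of same-numbered libraries was checked by correlating their deviations from the group means across genes, which gave 0.0182 to 0.0815 for equal numbers and −0.0705 to 0.0319 for unequal ones, so the numbers were not taken to pair the libraries. Alternatives were the deposited TPM without rescaling, median scaling, other pseudocounts, filters and fold limits, limma without the trend, a fit of only the groups compared, a replicate block, and each library left out. Promoters were the 250 bases before the RefSeq gene start. Some genes of the lists are not reported here by name.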

Additional observations from a re-analysis of the deposited data

Results flagged for a closer look

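For 14 named genes the change from spheres went in opposite directions in SCDM/FGF and in SCDM, and the direct difference between the media passed in limma. The difference, SCDM/FGF minus SCDM on the log2 scale, was positive for Ccl11 (8.65), Hmga2 (4.31), Cdh5 (4.02), Mmp13 (3.56), Notch4 (2.90), Emcn (2.69), Bdnf (2.61), Rgs5 (2.55) and Dusp6 (2.53). It was negative for Col2a1 (−7.02), Col9a1 (−6.39), Acan (−5.46), Col11a2 (−5.12) and Col9a2 (−4.38). Rgs5, a pericyte gene that regulates G proteins, rose in SCDM/FGF and fell in SCDM like the first set. Both changes share the sphere libraries, and with 3 libraries a group no test for a single library that stands apart was made.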

How the results depend on the processing

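With a fold limit of 1 in place of 1.5, 1184 genes were higher and 758 lower than in spheres, and 917 higher and 647 lower than in SCDM. With a pseudocount of 0.1, 641 genes were lower than in spheres, 735 were higher than in SCDM and 543 were lower than in SCDM. Without rescaling, 2529 genes were higher and 6871 lower than in spheres by adjusted p alone. No count moved by more than 1.5 times under the other alternatives. With each library left out in turn, 661 to 674 genes were higher and 300 to 327 lower than in spheres with the fold limit, and 464 to 477 higher and 303 to 341 lower than in SCDM. By adjusted p alone these ranges were 3674 to 3786 and 3534 to 3785 against spheres, and 3143 to 3281 and 3020 to 3208 against SCDM. A replicate block gave 660 higher and 309 lower genes against spheres, and 463 and 316 against SCDM, although the library numbers are not known to mark a pairing. Over 35 single genes and 521 alternatives, 502 kept their direction and side of the threshold, 15 lost the call, 4 gained it and 0 reversed. Among the genes named by the rule with 4 parts, Cycs, Egfr, Ntrk2 and Usp18 lost their call when a library was left out. The cause was not tested. For the genes chosen after their values were seen, results with a library left out are not given here. TPM values give no read depth, which limits statements on genes near 0.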
